A study of Mus musculus with 6 samples.

Results

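The 10 genes described here encode receptors that raise or restrain T cell activation: Icos, Ctla4, Cd28, Pdcd1, Tigit, Lag3, Klrg1, Cd96, Cd226 and Cd83. They were taken by symbol, and each stood in 1 of the 23282 entries of every count file. All 10 had a count in at least 2 of the 6 libraries. Of these, 8 passed the filter on low counts and were tested among 10475 genes, while Tigit and Lag3 were too low to test. The cells were regulatory T cells (Treg) from C57BL/6 mouse spleen, isolated by FACS and left unstimulated. One group of 3 libraries was wild type, and the other group of 3 was labelled IPMK cKO, which denotes a conditional knockout of the inositol polyphosphate multikinase gene Ipmk. The promoter behind the deletion, the age and number of the animals, and any allele carried by the wild type group are not given by the labels. The labels call the libraries biological replicates without tying them to separate mice. Each p-value thus sets the group difference against a spread between libraries that may be in part technical.

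T cells integrate the signal of the antigen receptor with signals from costimulatory and inhibitory receptors. CD28 and CTLA-4 compete for the same ligands, CD80 and CD86, with opposite effect, whereas ICOS binds a ligand of its own and PD-1, the product of Pdcd1, binds PD-L1 and PD-L2. TIGIT, CD96 and CD226 form a second set that shares ligands of the nectin family, with CD226 the activating partner. Treg depend on CD28 for their generation and upkeep and use CTLA-4 to strip CD80 and CD86 from antigen-presenting cells, while ICOS and KLRG1 mark activated or tissue-type Treg. The comparison of IPMK cKO with wild type asks how the Treg transcriptome differs when IPMK is lacking, in a study of effector Treg and calcium influx.

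The libraries held 7464546 to 8246993 counts in wild type against 8363324 to 8980395 in IPMK cKO, of which the ribosomal RNA precursor Rn45s took 16.7% to 31.7% and 19.9% to 32.1%. Counts of Ipmk were 129, 77 and 99 in wild type against 3, 21 and 0 in the IPMK cKO libraries; the deleted stretch is not stated, and a 3′ tag may lie outside it. IPMK cKO replicate 1 stood apart: 16 of the 500 most abundant genes were over 4-fold away from the other libraries' median there, against 0 of 500 in each of the other 5 libraries. Of the 8 receptors tested, Pdcd1 and Cd226 were also that far off in this library, and none was in any other. The defining Treg gene Foxp3 had 86, 590 and 279 counts in wild type against 605, 551 and 811 in IPMK cKO, so it was lowest in wild type replicate 1. The T helper co-receptor gene Cd4 was at 374 to 441 CPM (counts scaled to a common library size by TMM) in wild type against 296 to 451 CPM in IPMK cKO.

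KLRG1, CD96, CD226, TIGIT and LAG-3 are also made by NK cells and CD8 T cells, and CD83 by B cells and dendritic cells, so markers of these cells were read beside the receptors. The CD8 gene Cd8a, the NK cell genes Ncr1, Klra8 and Klra4, the B cell gene Pax5 and the dendritic cell genes Itgax and Flt3 had no count in any library. The summed level of the B cell list, with 5 of its 6 genes in the files, was 5.47 to 14.2 CPM in wild type against 7.10 to 13.1 CPM in IPMK cKO. The 2 genes of the CD8 list summed to 7.82 to 12.2 CPM in wild type against 2.11 to 8.62 CPM in IPMK cKO, all of it from Cd8b1. The 7 genes of the NK cell list summed to 2.73 to 7.94 CPM in wild type against 11.8 to 22.5 CPM in IPMK cKO. That difference lay in Eomes, a transcription factor of NK and T cells, and the other 6 genes summed to 0.820 to 7.94 CPM and 0 to 0.101 CPM. The 7 genes of the myeloid and dendritic cell list summed to 55.1 to 71.5 CPM in wild type against 14.5 to 79.3 CPM in IPMK cKO. Most of this came from Cst3, at 58.9 ± 10.9 CPM in wild type against 38.3 ± 29.6 CPM in IPMK cKO (mean and SD). The 5 platelet genes summed to 0 to 3.28 CPM in wild type against 1.41 to 6.49 CPM in IPMK cKO. The 6 erythroid genes summed to 0.120 to 60.4 CPM in wild type against 0 to 19.3 CPM in IPMK cKO. The part of such cells in the receptor counts was not tested beyond these values.

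Libraries were made from the 3′ ends of transcripts, so a transcript gives about 1 tag whatever its length, and CPM was compared between genes without dividing by length. How well each 3′ end was captured or annotated can still differ between genes. In wild type, Icos and Cd28 were the most abundant receptors at 368 ± 84.2 and 275 ± 29.9 CPM (SD, n = 3 each), and their libraries overlapped. Ctla4 (123 ± 26.2 CPM) and Cd96 (120 ± 41.5 CPM) came next and overlapped each other. Every wild type library had more Cd28 than the highest had Ctla4. Cd83, Klrg1 and Pdcd1 followed at 84.6 ± 38.6, 82.9 ± 36.6 and 71.2 ± 15.2 CPM, in an order that the spread did not separate. Cd226 lay below all of these libraries at 40.1 ± 9.71 CPM. Tigit and Lag3 were near the limit of detection, as described below. By edgeR's average level over all 6 libraries, both groups included, Icos and Cd28 stood above 96.3% of the 10475 genes tested, and Cd226 above 55.5%.

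**Figure D1:**
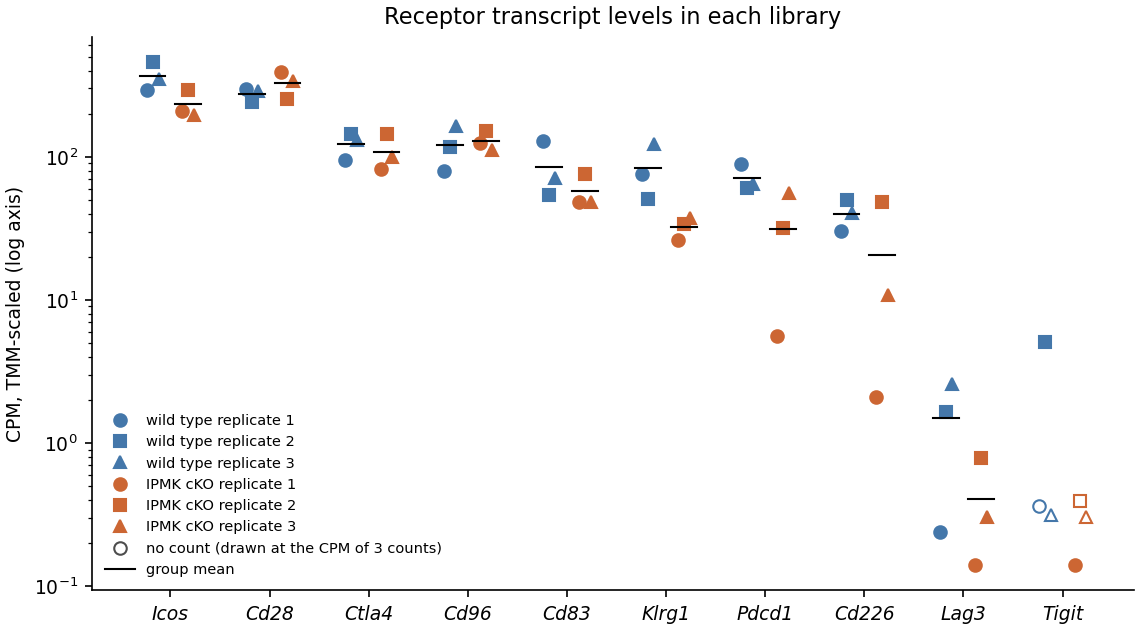
CPM of each receptor (log axis) in every library, with wild type in blue, IPMK cKO in orange, symbols for replicates and a bar for the group mean; open symbols mark libraries with no count, drawn at the CPM of 3 counts. Icos, Klrg1 and Pdcd1 have all IPMK cKO libraries below all wild type libraries, and Lag3 and Tigit lie more than 1 order of magnitude under the other receptors in group means.

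In IPMK cKO the transcripts of Icos, Klrg1 and Pdcd1 were lower in every library than in any wild type library, and those of Cd28, Ctla4, Cd96, Cd226 and Cd83 overlapped between the groups. None of the differences passed the test. By edgeR's quasi-likelihood test with adjustment over all genes, 0 of the 8 receptors rose and 0 fell, as for 0% of all genes tested. Neither DESeq2 nor limma-voom called any of them. At an unadjusted p under 0.05, 2 receptors were lower, Klrg1 and Icos, and 0 were higher; over all genes these shares were 1.19% and 1.37%. Without overlap between the groups, 3 of 8 were lower and 0 of 8 higher, against 5.66% and 4.74% of all genes. Estimates were below 0 for 6 of 8 receptors and for 48.2% of all genes, with median log2 fold changes of −0.61 and 0.03. Since the receptors were chosen with earlier results of these data known, these shares describe the 8 genes and give no test of the group. In these bulk libraries, fewer cells that make a receptor and less RNA of it per cell cannot be told apart.

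**Figure D2:**
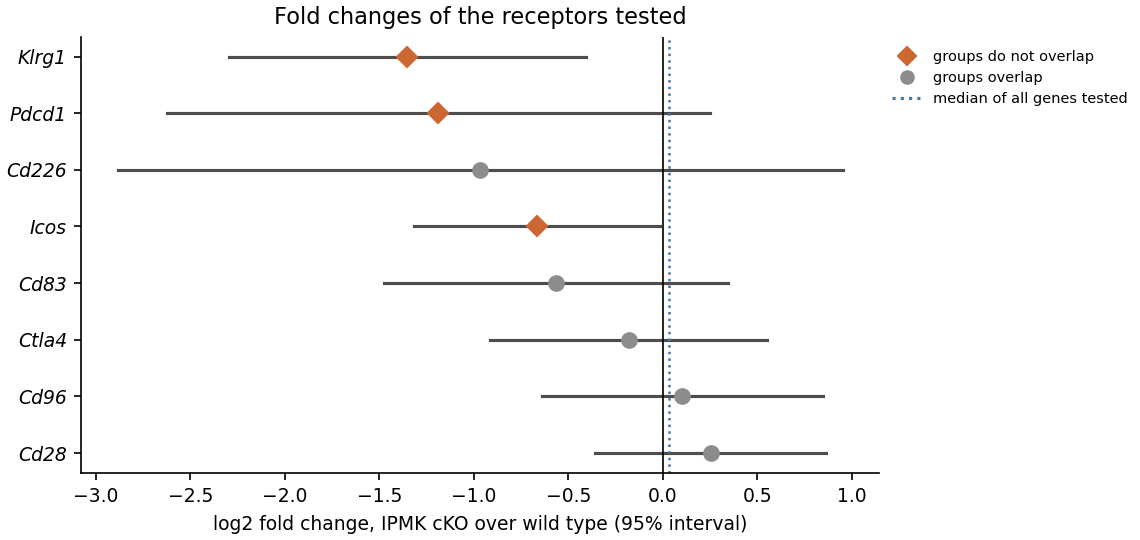
Log2 fold change of IPMK cKO over wild type with its 95% interval for the 8 receptors tested by edgeR; diamonds mark receptors whose groups do not overlap and the dotted line the median of all genes tested (0.03). The intervals of Klrg1 and Icos end below 0 before adjustment over all genes, and those of the other 6 receptors include 0.

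Among the CD28 family, Icos (chromosome 1, 60977927 to 61000320, plus strand, mm10) encodes the inducible costimulator that sustains activated Treg. Its level was 294, 460 and 351 CPM for wild type against 210, 291 and 196 CPM for IPMK cKO, in the order of replicates 1 to 3. All IPMK cKO libraries were thus below all wild type libraries, though IPMK cKO replicate 2 came within 3.09 CPM of wild type replicate 1. The mean was 368 ± 84.2 CPM in wild type against 232 ± 51.6 CPM in IPMK cKO (mean and SD, n = 3 each), a ratio of wild type to IPMK cKO of 1.59. The log2 fold change was −0.67 (SE 0.29, 95% interval −1.32 to −0.02), with an edgeR unadjusted p of 0.0451 and an adjusted p of 0.9999. It was −0.49 (unadjusted p = 0.186 by edgeR) without wild type replicate 2, the library with the most Icos.

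Ctla4, the inhibitory receptor that most Treg carry constitutively, lies in the same cluster (chromosome 1, 60887000 to 60915832, plus strand). It was at 94.3, 145 and 130 CPM in wild type against 82.7, 144 and 99.7 CPM in IPMK cKO. The groups overlapped nearly throughout. Its log2 fold change was −0.18 (SE 0.33, 95% interval −0.92 to 0.55), so a difference of nearly 1 log2 unit downward was within the interval. The estimate was −0.02 without IPMK cKO replicate 1 and −0.46 without replicate 2.

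Cd28, the constitutive costimulatory receptor, begins the cluster (chromosome 1, 60716800 to 60773359, plus strand). Its level was 296, 241 and 287 CPM in wild type against 392, 253 and 338 CPM in IPMK cKO. The highest values were those of IPMK cKO replicates 1 and 3, while replicate 2 lay within the wild type range. The log2 fold change was 0.25 (SE 0.28, 95% interval −0.36 to 0.86; edgeR adjusted p = 0.9999), and 0.10 without IPMK cKO replicate 1. The biological coefficients of variation of Cd28 and Icos were 0.281 and 0.293, against a trend of 0.329 for genes of their abundance.

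Pdcd1 encodes PD-1, an inhibitory receptor induced by antigen receptor signals (chromosome 1, 94038305 to 94052553, minus strand). It was at 88.7, 60.5 and 64.5 CPM in wild type against 5.63, 32.01 and 55.9 CPM in IPMK cKO replicates 1 to 3. Every IPMK cKO library was below every wild type library, but replicate 3 only just, and replicate 1 was at 0.0930 times the median of the other 5 libraries. The mean was 71.2 ± 15.2 CPM in wild type against 31.2 ± 25.2 CPM in IPMK cKO (mean and SD, n = 3 each). The log2 fold change was −1.19 (SE 0.65, 95% interval −2.62 to 0.25; edgeR adjusted p = 0.9999). It was −0.70 without IPMK cKO replicate 1, −0.51 without both libraries numbered 1 and −1.92 without IPMK cKO replicate 3. 

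**Figure D3:**
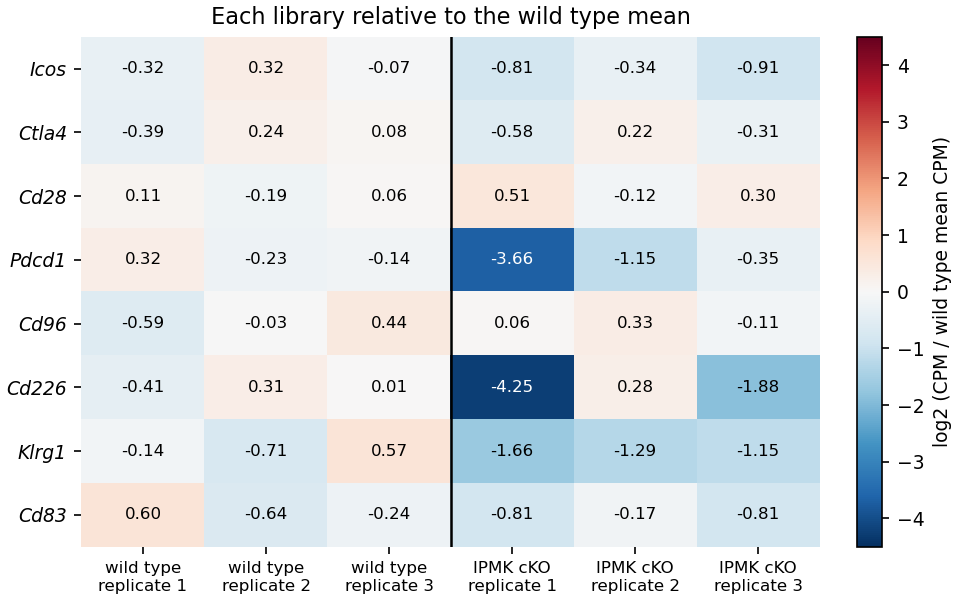
Log2 of each library's CPM over the wild type mean for the 8 receptors tested, with genes in rows, libraries in columns and red for higher and blue for lower values. Klrg1 is at −1.15 or lower in all 3 IPMK cKO libraries, whereas Pdcd1 (−3.66) and Cd226 (−4.25) are lowest in IPMK cKO replicate 1.

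Of the nectin-binding receptors, Cd96 and Cd226 overlapped between the groups and Tigit was near 0. Cd96 (chromosome 16, 46035657 to 46120251, minus strand), a receptor of T and NK cells that binds CD155, was at 80.1, 118 and 163 CPM in wild type against 125, 152 and 111 CPM in IPMK cKO. The IPMK cKO libraries lay within the wild type range, and the log2 fold change was 0.10 (SE 0.34, 95% interval −0.64 to 0.85). It turned negative, at −0.12, without wild type replicate 1, at −0.05 without IPMK cKO replicate 2 and at −0.10 without both libraries numbered 1.

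Cd226 encodes DNAM-1, the activating receptor for CD155 and nectin-2 (chromosome 18, 89176967 to 89272229, plus strand). It was at 30.2, 49.6 and 40.5 CPM in wild type against 2.11, 48.6 and 10.9 CPM in IPMK cKO. Replicates 1 and 3 of IPMK cKO lay below all wild type libraries and replicate 2 within their range, so the IPMK cKO libraries spread 23.0-fold against 1.64-fold in wild type. The estimate was −0.97 on the log2 scale (SE 0.87, 95% interval −2.88 to 0.95; edgeR adjusted p = 0.9999). It was −0.44 without IPMK cKO replicate 1 and −2.63 without replicate 2, the widest range of the 8 receptors when 1 library was left out. The CD8 T cell gene Cd8b1 was also lowest in IPMK cKO replicate 1, at 7.82, 12.2 and 9.88 CPM in wild type against 2.11, 8.62 and 5.89 CPM in IPMK cKO, and its part in Cd226 was not tested.

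Tigit (chromosome 16, 43648867 to 43664146, minus strand), the inhibitory partner of CD226 that Treg are known to carry, had 0, 37 and 0 counts in wild type against 1, 0 and 0 in IPMK cKO. All but 1 of its 38 counts came from wild type replicate 2 (5.06 CPM). A count of 0 allows up to 0.361 and 0.312 CPM in wild type replicates 1 and 3, and up to 0.392 and 0.304 CPM in IPMK cKO replicates 2 and 3 (3 counts, counting error only). Reads had no molecular identifiers, so such limits cover counting error alone. With nearly all counts in 1 library, Tigit gave no comparison between the groups. Whether the authors' counting covered the 3′ ends of Tigit and Lag3 is not stated, so their low counts do not show that the cells lacked these transcripts.

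Lag3, whose product binds MHC class II and restrains T cells (chromosome 6, 124904361 to 124911705, minus strand), had a count in all 6 libraries but few. There were 2, 12 and 25 counts in wild type against 1, 6 and 3 in IPMK cKO, or 0.241, 1.64 and 2.60 CPM and 0.141, 0.784 and 0.304 CPM. The groups overlapped, since wild type replicate 1 lay below IPMK cKO replicates 2 and 3. Summed over a group, 39 against 10 counts gave a ratio of wild type to IPMK cKO of 3.80 (95% exact binomial interval 1.86 to 8.54, counting error only). That interval leaves out the spread between libraries. In the fit with no filter on low counts, Lag3 was not called (log2 fold change −1.83, SE 3.40; edgeR adjusted p = 0.981), nor was Tigit (−4.82, SE 3.87; edgeR adjusted p = 0.885).

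Klrg1 encodes an inhibitory lectin-like receptor that binds cadherins and marks terminally differentiated Treg (chromosome 6, 122270596 to 122282882, minus strand). It was at 75.3, 50.7 and 123 CPM in wild type against 26.2, 34.0 and 37.3 CPM in IPMK cKO. The groups did not overlap, and the IPMK cKO libraries were close together, with a coefficient of variation of 17.6% against 44.2% in wild type. The mean was 82.9 ± 36.6 CPM in wild type against 32.5 ± 5.73 CPM in IPMK cKO (mean and SD, n = 3 each), a ratio of wild type to IPMK cKO of 2.55. The log2 fold change was −1.35 (SE 0.43, 95% interval −2.29 to −0.41), with the smallest edgeR unadjusted p of the 8 receptors, 0.00922, and an adjusted p of 0.9999. The estimate was −0.96 (edgeR unadjusted p = 0.0878) without wild type replicate 3, the library with the most Klrg1, and −1.22 without IPMK cKO replicate 1.

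Cd83, a surface protein of activated lymphocytes and dendritic cells that keeps MHC class II and CD86 at the surface (chromosome 13, 43784775 to 43803132, plus strand), was at 128, 54.3 and 71.6 CPM in wild type against 48.1, 75.4 and 48.3 CPM in IPMK cKO. Wild type replicate 1 stood above the rest, and the other libraries of both groups were mixed. On the log2 scale the fold change was −0.56 (SE 0.41, 95% interval −1.47 to 0.35; edgeR adjusted p = 0.9999). It was −0.14 without wild type replicate 1 and −0.03 without both libraries numbered 1. The summed B cell markers were also highest in that library, at 14.2, 5.47 and 13.7 CPM in wild type against 8.16, 13.1 and 7.10 CPM in IPMK cKO, and their part in Cd83 was not tested. The MHC class II gene H2-Ab1 had no count in wild type replicate 1.

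The ratio of 2 receptors within a library needs no scaling between libraries. Of the 28 ratios among the 8 receptors tested, 5 did not overlap between the groups. These were looked at after the values were seen and carry no test. Each of the 5 holds Icos, Klrg1 or Pdcd1, the receptors that had no overlap in CPM, so the ratios give no separate support. The share of ratios without overlap among other genes was not computed. Icos gave 3.12, 3.17 and 2.70 counts per count of Ctla4 in wild type against 2.53, 2.03 and 1.96 in IPMK cKO. Relative to its mean, this ratio had the smallest spread of the 5 in wild type (2.99 ± 0.258, against 2.17 ± 0.313 in IPMK cKO; SD, n = 3 each). Icos to Cd96 was 3.67, 3.90 and 2.15 in wild type against 1.68, 1.92 and 1.76 in IPMK cKO. Klrg1 to Cd96 was 0.940, 0.430 and 0.753 in wild type against 0.209, 0.224 and 0.335 in IPMK cKO. Cd28 to Klrg1 was 3.94, 4.75 and 2.34 in wild type against 15.0, 7.45 and 9.04 in IPMK cKO. Cd28 to Pdcd1 was 3.34, 3.98 and 4.46 against 69.6, 7.90 and 6.04. Icos to Cd28 overlapped, at 0.992, 1.91 and 1.22 in wild type against 0.535, 1.15 and 0.579 in IPMK cKO.

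**Figure D4:**
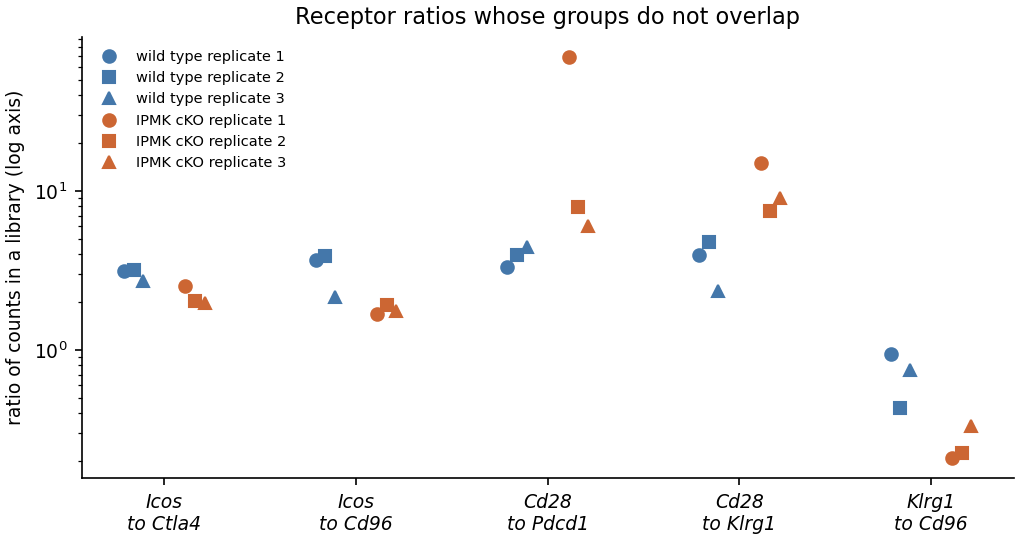
Ratio of the counts of 2 receptors within each library (log axis) for the 5 of 28 ratios whose groups do not overlap, with wild type in blue and IPMK cKO in orange. Icos to Ctla4 runs from 2.70 to 3.17 in wild type and from 1.96 to 2.53 in IPMK cKO. Each ratio shown holds Icos, Klrg1 or Pdcd1, the receptors without overlap in CPM.

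The 10 receptors together took 0.153%, 0.164% and 0.173% of the counts outside Rn45s in wild type against 0.103%, 0.139% and 0.124% in IPMK cKO replicates 1 to 3. Each IPMK cKO library had a smaller share than every wild type library. These shares are of counts without TMM scaling, and no such share was computed for other sets of genes. Icos, Ctla4 and Cd28 made up most of it, at 0.0965% to 0.117% in wild type against 0.0788% to 0.0927% in IPMK cKO. Of these, only Icos was lower without overlap in CPM, while Ctla4 overlapped and Cd28 had an estimate above 0. The nectin receptors took 0.0156% to 0.0285% and 0.0147% to 0.0270%, which overlapped.

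Among other immunoglobulin-type and lectin-like receptors of T cells, estimates above 0 outnumbered those below. Of 22 such genes 21 were in the files and 16 were tested: 0 rose, 0 fell, 11 had estimates above 0 and 5 below. Among all genes tested, 5427 of 10475 estimates were above 0. The median log2 fold change of the 16 was 0.13. Higher in every IPMK cKO library were 2 of 16, Cd84 and Btla, and lower 0 of 16, against 4.74% and 5.66% of all genes tested. Cd84, a homophilic receptor of the SLAM family, was at 48.7, 62.7 and 49.2 CPM in wild type against 88.2, 79.4 and 83.1 CPM in IPMK cKO (a log2 fold change of 0.64, SE 0.33; edgeR adjusted p = 0.9999). Btla, an inhibitory receptor for HVEM, was at 61.0, 64.0 and 62.1 CPM in wild type against 94.3, 70.0 and 69.0 CPM in IPMK cKO (0.32, SE 0.33), and was named after its values were seen. The inhibitory receptor VISTA is encoded by 4632428N05Rik, which was at 162, 161 and 199 CPM in wild type against 442, 137 and 190 CPM in IPMK cKO (0.56, SE 0.41). The higher mean came from IPMK cKO replicate 1, and without it the means were 174 CPM in wild type against 163 CPM in IPMK cKO. Cd5, a brake on antigen receptor signalling, was at 323, 225 and 251 CPM in wild type against 107, 178 and 329 CPM in IPMK cKO (−0.38, SE 0.39). Its means without that library were 266 and 254 CPM. Slamf1, a SLAM family receptor, had an estimate of 0.46 (SE 0.38), with overlap between the groups. The checkpoint receptor gene Havcr2, which encodes TIM-3, had no count in any library.

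Of the 17 ligand genes, 9 were tested, of which 0 rose and 0 fell, with a median log2 fold change of −0.26. Estimates were below 0 for 5 of 9, against 48.2% of all genes tested. Without overlap, 1 of 9 was higher, Icosl, and 1 of 9 lower, Lgals3, against 4.74% and 5.66% of all genes tested. Icosl, the gene of the ICOS ligand (chromosome 10, 78069302 to 78083913, plus strand), had 0, 1 and 0 counts in wild type against 96, 20 and 45 in IPMK cKO replicates 1 to 3. All IPMK cKO libraries were thus above all wild type libraries, whereas for Icos all were below. Summed over a group, 161 counts against 1 gave a ratio of IPMK cKO to wild type of 165 (95% exact binomial interval 29.2 to 6562, counting error only). The gene was not called (edgeR unadjusted p = 0.0151, adjusted p = 0.9999), and its mean in IPMK cKO was 6.90 ± 5.81 CPM (SD, n = 3). Some genes of antigen-presenting cells, H2-Ab1, H2-Aa and Cd79a, were also highest in IPMK cKO replicate 1, the library with the most Icosl. The MHC class II genes H2-Ab1 and H2-Aa had 0, 35 and 2 and 0, 39 and 0 counts in wild type against 91, 21 and 12 and 63, 5 and 12 in IPMK cKO. The B cell gene Cd79a had 57 counts in IPMK cKO replicate 1 and 0 in replicates 2 and 3, while Cd79b had 1 count in replicate 1 and Pax5 none in any library. The summed myeloid and dendritic cell markers, mostly Cst3, were lowest in replicate 1, at 14.5 CPM. The part of such cells in Icosl was not tested. Ipmk lies on the same chromosome as Icosl (71347763 to 71433327, plus strand), and any part of that position in the Icosl counts was not tested.

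Cd274, which encodes PD-L1, was the most abundant ligand at 81.4 ± 18.7 CPM in wild type against 68.0 ± 11.6 CPM in IPMK cKO (mean and SD, n = 3 each, with a log2 fold change of −0.26, SE 0.34). Pdcd1lg2, which encodes PD-L2, was at 12.3, 21.9 and 29.2 CPM in wild type against 0.422, 20.8 and 1.52 CPM in IPMK cKO (−1.48, SE 1.21). As for Cd226, replicates 1 and 3 of IPMK cKO were low and replicate 2 was within the wild type range. Lgals3, the gene of galectin-3, a ligand of LAG-3, was at 8.18, 10.2 and 21.1 CPM in wild type against 2.95, 2.74 and 0.609 CPM in IPMK cKO, without overlap (−2.64, SE 1.29). Pvrl1, which encodes nectin-1, had 99, 0 and 50 counts in wild type against 20, 7 and 0 in IPMK cKO. Pvr, which encodes CD155, had 337, 146 and 501 counts in wild type against 538, 242 and 197 in IPMK cKO (0.18, SE 0.59), and overlapped. Cd86, whose product binds CD28 and CTLA-4, had 78, 43 and 84 counts in wild type against 53, 6 and 98 in IPMK cKO (−0.40, SE 1.32), also with overlap. None of the 9 ligand genes tested was called by edgeR. Cd80, too low to test, had 73, 9 and 9 counts in wild type against 2, 0 and 0 in IPMK cKO, and Pvrl2, Pvrl3, Cdh1, Cdh2, Tnfrsf14 and Fgl1 were likewise untested with some counts.

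Of the 32 genes of receptor signalling and trafficking, 29 were tested, 0 rose and 0 fell, and 21 had estimates above 0 (median log2 fold change 0.09). Over all genes tested, 5427 of 10475 estimates were above 0. The sheddase gene Adam17, whose product can cleave LAG-3, was at 88.4, 112 and 138 CPM in wild type against 59.9, 63.8 and 62.1 CPM in IPMK cKO (−0.86, SE 0.32). Pik3r1, the regulatory subunit of the lipid kinase that CD28 and ICOS recruit, was at 113, 165 and 147 CPM in wild type against 263, 239 and 188 CPM in IPMK cKO (0.70, SE 0.29). These were the 2 genes of the list without overlap between the groups, 1 of 29 lower and 1 of 29 higher. Over all genes tested, 5.66% were lower and 4.74% higher in this way. Lrba, which protects CTLA-4 from degradation, had an estimate of −0.47 (SE 0.37). Def6, linked like it to CTLA-4 trafficking, was at 52.2, 118 and 97.2 CPM in wild type against 252, 78.7 and 126 CPM in IPMK cKO (0.77, SE 0.46). Without IPMK cKO replicate 1 the Def6 means were 89.0 CPM in wild type against 102 CPM in IPMK cKO.

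Of the 24 regulators listed for these receptors, 23 were tested, 0 rose and 0 fell, with a median log2 fold change of −0.17. Estimates were below 0 for 13 of 23, against 48.2% of all genes tested. Without overlap, 4 of 23 were lower, Maf, Nfkb1, Batf and Prdm1, and 3 of 23 higher, Satb1, Bach2 and Eomes. The shares over all genes tested were 5.66% lower and 4.74% higher. The list was chosen with earlier results known, so these counts give no test of it. The NF-kappaB subunit gene Nfkb1 was at 92.6, 79.9 and 99.6 CPM in wild type against 16.6, 45.2 and 47.4 CPM in IPMK cKO (−1.32, SE 0.44; edgeR adjusted p = 0.9999). Maf, a transcription factor of effector Treg, was at 440, 519 and 293 CPM in wild type against 170, 258 and 214 CPM in IPMK cKO (−0.96, SE 0.31). Satb1, a chromatin organizer of resting T cells, was at 248, 347 and 346 CPM in wild type against 752, 556 and 602 CPM in IPMK cKO (1.02, SE 0.27). Eomes was at 0, 1.91 and 3.85 CPM in wild type against 22.5, 11.8 and 15.0 CPM in IPMK cKO (3.08, SE 1.47).

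**Figure D5:**
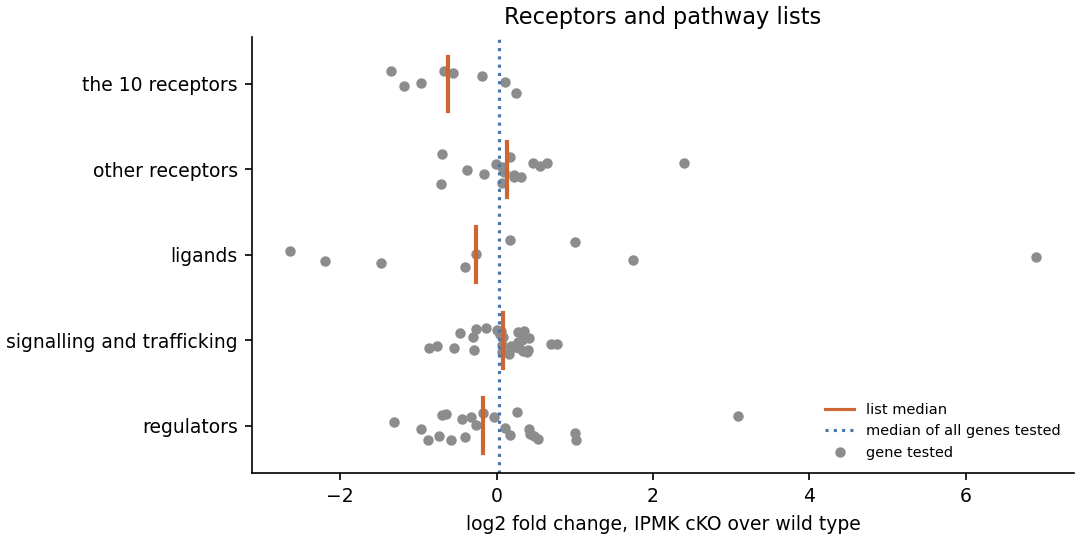
Log2 fold change of IPMK cKO over wild type for each tested gene (grey points, jittered vertically) of the 10 receptors and of 4 pathway lists, with the list median in orange and the median of all genes tested as a dotted line. The receptors' median is −0.61, against 0.13 for other receptors, −0.26 for ligands, 0.09 for signalling and trafficking and −0.17 for regulators.

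For each receptor tested, the genes with the most similar pattern were sought among 5941 others with a mean of at least 20 CPM, by Pearson's r of log2 CPM over the 6 libraries. These values describe 6 libraries that differ in depth and genotype and carry no p. They are the highest of 5941 correlations for each receptor, so high values can come from the search itself and do not show shared regulation. The closest were Cd44 for Cd226 (r = 0.998, and 0.993 without IPMK cKO replicate 1), Mien1 for Cd28 (0.998) and Relb for Pdcd1 (0.998, and 0.983 without that library). Tmem234 was closest to Ctla4 (0.986), Mrpl43 to Icos (0.978), Rlim to Klrg1 (0.968), Snrpb to Cd83 (0.965) and Pef1 to Cd96 (0.954). The next in order were Uqcrfs1 for Cd226, Mapk3 for Cd28, Dgcr2 for Pdcd1, Gmip for Ctla4, Sept9 for Icos, Cdc42 for Klrg1, Rpl4 for Cd83 and Tmbim4 for Cd96, with r of 0.954 to 0.995. No 2 receptors had a closest gene in common.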

How the data were processed

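Total RNA of sorted, unstimulated splenic Treg was made into 3′ end libraries with the Lexogen QuantSeq kit, per the labels' protocols. Values in the deposited files are raw counts by gene symbol, as whole numbers, per the file headers. Bowtie2, edgeR, mm10 and hg19 appear, per the submitters' processing notes, with neither role nor version. No source used here gives the counting program, annotation or strand setting, so overlapping genes cannot be separated. Within the receptor genes, GENCODE M21 places Gm37039 in Icos and Rpl18-ps1 in Ctla4, both on the same strand and without an entry in the files. Coordinates are from GENCODE M21 on mm10.

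Counts of 3 wild type and 3 IPMK cKO libraries were fitted with edgeR 4.0.16 in R 4.3.3 (TMM, filterByExpr with a minimum of 10 counts, glmQLFit, glmQLFTest), and p-values of the 10475 genes were adjusted by Benjamini-Hochberg, with a threshold of 0.05. Levels are CPM on TMM-scaled sizes. The SE is the estimate over the square root of F, and 95% intervals use the fit's degrees of freedom. Groups do not overlap where every library of one lies below every library of the other. The procedure was tested on simulated data. Its pass check used less spread between libraries than was found here, so it does not show which changes could be found in these data. Alternatives used DESeq2 1.42.0, limma-voom (limma 3.58.1), robust fitting, other size factors and filters, no Rn45s, the replicate number as a term, and each library left out; leaving out both libraries numbered 1 was added after the data were seen.

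The receptors and all gene lists were chosen with earlier results of these data known. Named were all receptors, Ipmk, Cd4, Foxp3 and up to 4 tested genes with the smallest p per pathway list. Ligands with a count and the 2 genes most like each receptor were also named. Others (Cd79a, Cd79b, Cd8b1, Cst3, Batf, Prdm1, Bach2, Btla, Cd274, Havcr2 and markers at 0) were named after their values were seen.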

Additional observations from a re-analysis of the deposited data

How the results depend on the processing

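Over 16 alternative settings, 125 of 128 recomputed log2 fold changes of the 8 receptors kept their sign and stayed uncalled. The other 3 were those of Cd96, which ran from −0.12 to 0.38 when single libraries were left out and was −0.10 without both libraries numbered 1. No receptor was called in any setting. Over all genes the count called was 4 with DESeq2, 1 without both libraries numbered 1, and 0 to 1 when single libraries were left out. The 3 receptors without overlap became 3 to 6 when single libraries were left out, the most without IPMK cKO replicate 2. There, genes without overlap also went from 593 lower and 496 higher to 1528 and 1152. Without wild type replicate 1 the count included Lag3, which then passed the filter (log2 fold change −2.33, SE 2.41) and was lower without overlap. The same held without both libraries numbered 1 (−1.94, SE 2.66). The lowest adjusted p over all settings was 0.616 for Klrg1 (DESeq2) and 0.776 for Icos (edgeR without IPMK cKO replicate 2). The labels do not say that the replicate numbers pair the libraries. Numbers here are those of the titles, and the headers number the replicate 3 library of each group 4. Deviations of same-numbered libraries correlated at 0.0454, 0.0877 and 0.0265 across genes, although each library correlated best with its own number. With the replicate block, 0 receptors and 0 genes were called, and the estimates were −1.57 for Pdcd1 and −1.87 for Cd226. In the main fit, Tigit and Lag3 had too few counts to pass the filter, for a reason that was not tested. The intervals of Cd226 and Pdcd1 span more than 2 log2 units.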

Other observations

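The SLAM family gene Cd48, whose product binds CD2 and CD244, had 629, 514 and 1296 counts in wild type against 26, 608 and 866 in IPMK cKO. The adaptor gene Sh2d1a, whose product SAP links SLAM receptors to signalling, had 315, 210 and 233 counts in wild type against 26, 242 and 181 in IPMK cKO. Like Pdcd1 and Cd226, these genes were lowest in IPMK cKO replicate 1, at 0.0461 and 0.127 times the median of the other 5 libraries. The adhesion receptor gene Cd2 was at 0.944 times that median there. These genes were picked after their values were seen, and none was called by edgeR.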
